A study of Homo sapiens with 12 samples.

Results

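The semaphorins, their plexin receptors and the neuropilins were followed across 12 RNA-seq libraries of MDA-MB-231 and Hs-578T, established cell lines of triple-negative breast cancer. Members were taken by gene symbol among the protein-coding genes, semaphorins of classes 3 to 7, plexins A to D and the neuropilins, and 31 of the 17665 protein-coding genes listed met this rule, 20 semaphorins, 9 plexins and 2 neuropilins. In each line there were 2 parental controls, 2 libraries labelled ERK5-ko, for which guides of the CRISPR/Cas9 system were directed at MAPK7, and 2 labelled MEK5DD, after a MEK5 that is active without stimulation. MEK5 is the kinase that activates ERK5. All cells were grown to about 70% confluence before RNA was taken. For MDA-MB-231, the ERK5-ko line is a single surviving clone, and which of several Hs-578T clones was sequenced is not stated. How the MEK5DD lines were made is not given in the sources used here. Passage labels were 29 and 30 in MDA-MB-231 parental controls, 7 and 8 in those labelled ERK5-ko and 10 and 11 in those labelled MEK5DD. In Hs-578T they were 83 and 84 in parental controls against 8 and 9 in both other groups, so passage and genotype cannot be told apart in any comparison with parental controls. For the cells that the ERK5-ko lines were made from, the paper gives higher passages than these lines carry in their labels. Their labels are thus not on the scale of the controls, and for MEK5DD this is not stated.

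Semaphorins are secreted or membrane-bound guidance cues, first known from axon repulsion and later from endothelial, immune and tumor cells. Most signal through plexins, transmembrane receptors whose cytoplasmic part acts on small GTPases and loosens adhesion of the cell to its matrix. Class 3 semaphorins are secreted, and most of them need a neuropilin, NRP1 or NRP2, to hold them to a class A plexin, and neuropilins also bind vascular endothelial growth factors. Members of classes 4, 5 and 6 span the membrane, and SEMA7A is held there by a glycolipid anchor.

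The sequences directly upstream of 4 members are shown as examples of members that passed in at least 1 comparison with parental controls. They are not the 4 members with the largest or most certain changes. PLXNA1 and PLXND1 were lower and PLXNA2 was higher in MDA-MB-231 labelled MEK5DD, and SEMA5A was lower with the ERK5-ko label in both lines. The sequences are from RefSeq on GRCh38.p14, printed 5′ to 3′ on the strand of the gene, and, other than that of PLXND1, end at the RefSeq transcription start. PLXNA1 is chr3:126982865-126983114 on the plus strand, PLXNA2 is chr1:208244385-208244634, SEMA5A is chr5:9546076-9546325 and PLXND1 is chr3:129606819-129606926, all 3 on the minus strand. The window of PLXND1 was shortened to 108 bases, since the rest, nearest to the start, lies within the gene as the deposited table gives it, and that of PLXNA1 ends 5479 bases upstream of the gene start in the table. Capitals mark matches to the GC-box GGGCGG on either strand, which overlap in places.
PLXNA1: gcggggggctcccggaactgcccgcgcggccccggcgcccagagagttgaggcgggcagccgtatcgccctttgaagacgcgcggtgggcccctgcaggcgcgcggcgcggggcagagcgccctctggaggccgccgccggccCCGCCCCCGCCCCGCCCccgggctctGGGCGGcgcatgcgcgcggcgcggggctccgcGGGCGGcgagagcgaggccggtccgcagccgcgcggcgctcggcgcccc
PLXND1: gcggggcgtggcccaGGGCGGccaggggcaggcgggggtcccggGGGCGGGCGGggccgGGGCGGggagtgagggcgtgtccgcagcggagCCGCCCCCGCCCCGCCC
PLXNA2: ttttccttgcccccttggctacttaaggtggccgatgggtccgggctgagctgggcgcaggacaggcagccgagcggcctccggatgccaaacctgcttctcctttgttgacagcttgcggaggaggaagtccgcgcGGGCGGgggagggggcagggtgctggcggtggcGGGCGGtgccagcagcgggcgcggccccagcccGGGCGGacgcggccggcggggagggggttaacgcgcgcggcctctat
SEMA5A: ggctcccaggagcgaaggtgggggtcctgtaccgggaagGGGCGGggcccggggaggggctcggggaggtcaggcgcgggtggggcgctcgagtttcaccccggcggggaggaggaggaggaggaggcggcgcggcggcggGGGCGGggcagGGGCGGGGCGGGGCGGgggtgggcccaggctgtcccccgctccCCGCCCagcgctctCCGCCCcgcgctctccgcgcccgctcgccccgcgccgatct
The 4 sequences hold 5, 7, 3 and 7 matches in this order. Windows of 250 bases upstream of the start were found for 27 of the 31 members, 48 windows in all, and those of NRP1, SEMA3A, SEMA6A and SEMA6B had no entry. A GC-box was found in 30 of the 48 windows, belonging to 24 members, against 42.64% of the 35116 windows of all genes. The AP-1 motif TGANTCA was found in 1 member window, that of PLXNC1, against 6.573% of all windows, and the E-box CAGGTG in 6 against 17.49%. The MEF2 motif, searched since MEF2 factors are known substrates of ERK5, was found in 0 of the member windows and in 1.751% of all windows. A match or its absence describes only these letters in this window.

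Library totals recovered from the values lay between 20248162 and 27791195 reads. MAPK7, the gene of ERK5, had RPKM values of 13.3 and 14.3 in MDA-MB-231 parental controls and 16.3 and 17.8 with the ERK5-ko label, and 13.97 and 15.98 against 17.8 and 18.1 in Hs-578T. Every library with the ERK5-ko label was thus above both controls of its line in MAPK7 RNA, and directions given for these libraries refer to their labels. The paper reports that ERK5 protein, by Western blot, was significantly lower in the ERK5-ko cells of both lines than in parental cells. RNA level alone does not measure this protein. The paper's methods say that qRT-PCR, an RNA assay, was also used to establish the knockout of the clones. Its text gives no MAPK7 value from that assay. MAP2K5, the gene of MEK5, had RPKM values of 188 and 184 in MDA-MB-231 labelled MEK5DD against 12.9 and 13.6 in parental controls. In Hs-578T it had 21.3 and 23.8 against 14.6 and 16.9, a much smaller difference. In both lines, ESR1 had an RPKM of at most 0.120 and PGR of at most 0.348 in any library, ERBB2 lay between 27.8 and 56.8, and of the endothelial markers CDH5 had at most 1 read in any library. The sum of PECAM1, CDH5 and KDR lay between 0.998 and 2.72 RPKM in MDA-MB-231 and between 3.06 and 6.70 in Hs-578T libraries, and PTPRC and CD3E, markers of leukocytes, reached at most 13 reads and 1 read in a library. The sum of PTPRC, CD68 and CD3E was 52.5 to 108 RPKM in MDA-MB-231 and 23.3 to 53.6 in Hs-578T, nearly all of it CD68, and that of SYP and TUBB3, which is listed under 2 gene identifiers, was 39.6 to 127 and 166 to 389, nearly all of it TUBB3 (RBFOX3 was not analysed here). Of the mesenchymal markers VIM, CD44, FN1, ZEB1, SPARC and CDH2, 4 had an RPKM of at least 1 in every MDA-MB-231 library and all 6 in every Hs-578T library. Of the luminal markers, 4 of 6 and 3 of 6 did so. The part of other cell types in the results was not tested, and in such bulk libraries fewer cells of a type and less RNA per cell cannot be told apart.

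Of the 31 members, 19 had an RPKM of at least 1 in every library, 8 of at least 10 and 3 of at least 50, namely NRP1, PLXNB2 and SEMA3C. RPKM are reads scaled to the length of the gene and to the total of the library. NRP1, the neuropilin of SEMA3A and of VEGF-A, lay between 80.1 and 163 RPKM over the 12 libraries, PLXNB2 between 78.2 and 140, and SEMA3C, a secreted ligand, between 67.1 and 126. SEMA4A had the lowest level, at most 0.132 RPKM or 6 reads, and was the 1 member not tested. SEMA5B had 0 reads in every MDA-MB-231 library, which allows up to 3 reads in each. The order between genes depends on the length used. The recovered length of a gene was close to the mean length of its annotated transcripts, 1247 bases for PLXND1 and 3603 for PLXNA1, while the longest GENCODE 29 transcripts have 7094 and 9066 bases. In Hs-578T parental controls PLXND1 was thus the highest of the 31 members by RPKM, with 131, but the 5th on the scale of the longest transcript, with 22.96. NRP1 was the highest on this scale in both lines, at 79.4 (MDA-MB-231) and 60.6 (Hs-578T), followed by PLXNA1 and PLXNB2. On the RPKM scale PLXNA1, NRP1 and PLXNB2 led in MDA-MB-231, and PLXNA1 with 185 and 163 overlapped NRP1 with 162 and 163. In Hs-578T the leading 5 by RPKM, PLXND1, PLXNB2, NRP1, PLXNA1 and SEMA3C, overlapped each with its neighbor in the order.

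**Figure D1:**
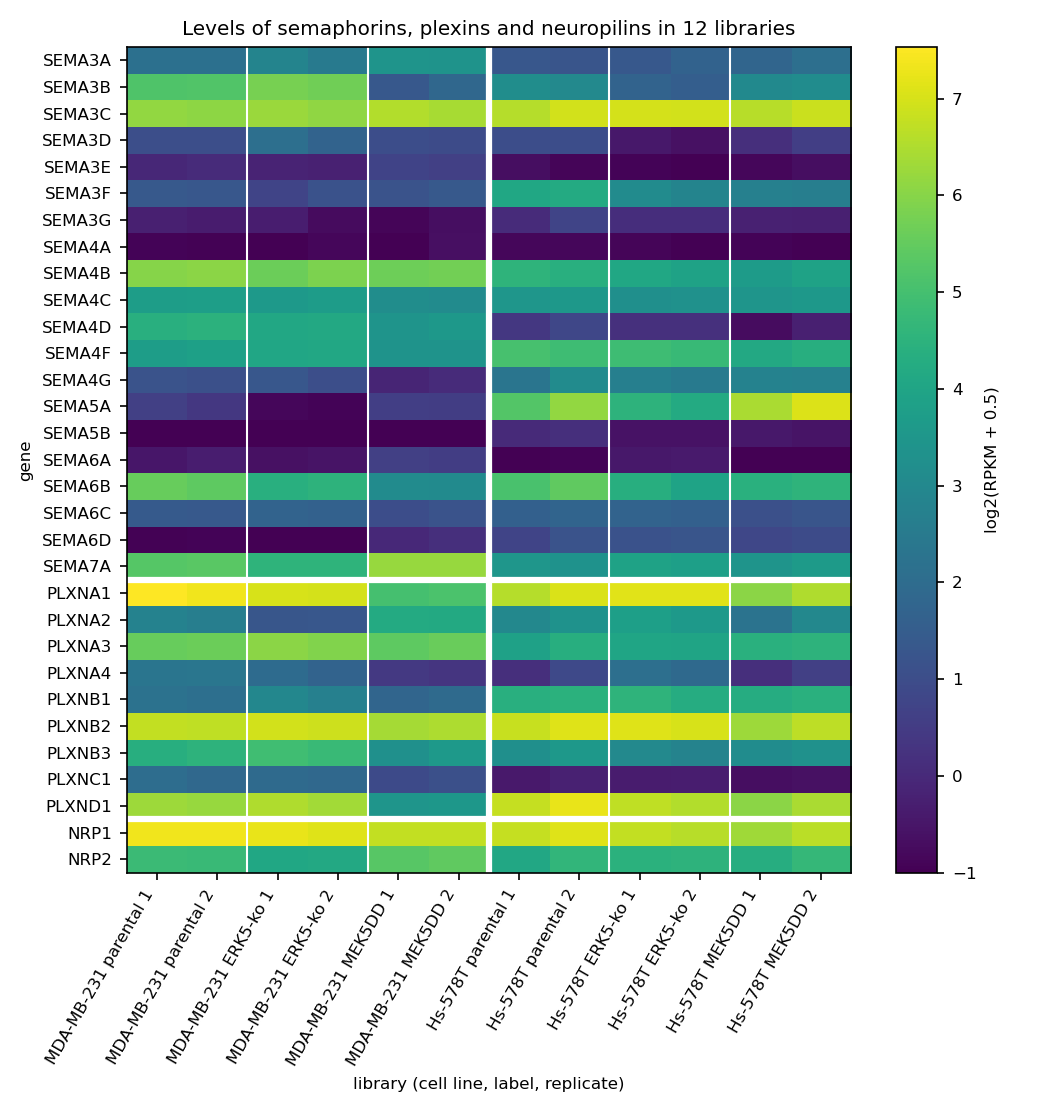
Levels of all 31 members in the 12 libraries, as log2(RPKM + 0.5) on a color scale, with semaphorins, plexins and neuropilins from top to bottom and thick white lines between families and cell lines. NRP1, PLXNB2 and SEMA3C are bright in every library, while among the parental controls SEMA4D, PLXNC1 and SEMA3B are brighter in MDA-MB-231 and SEMA5A and SEMA3F in Hs-578T.

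**Figure D2:**
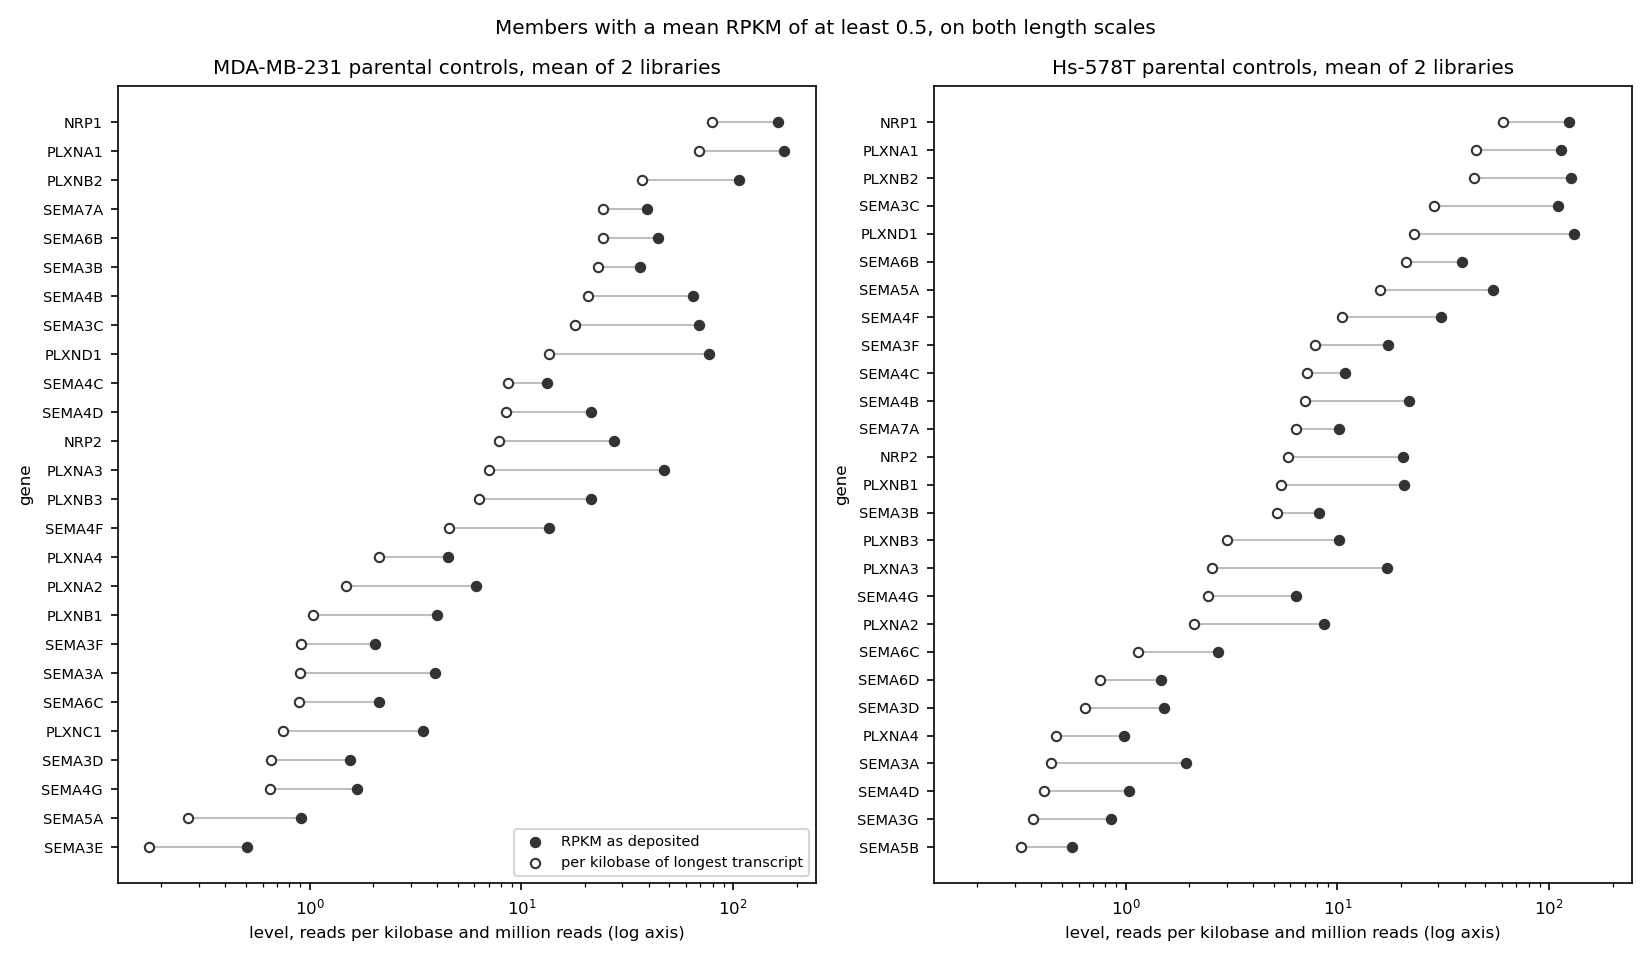
Mean level in the parental controls of each line (n = 2; x axis, log scale) of the members with an RPKM of at least 0.5 (y axis), as deposited RPKM (filled) and per kilobase of the longest transcript (open), ordered by the latter. Every open point lies left of its filled point, and the distance is largest for PLXNA3 and PLXND1.

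The parental lines differed in most members. At an adjusted p under 0.05, 15 of the 30 tested members were higher in MDA-MB-231 than in Hs-578T and 11 lower, while among all 13737 tested genes 46% were higher and 31.3% lower. SEMA4D, which signals through PLXNB1, was 20.6 and 21.96 RPKM in MDA-MB-231 and 0.815 and 1.26 in Hs-578T, 20.5-fold higher in the mean. PLXNB1 itself was the other way around, 4.15 and 3.82 RPKM in MDA-MB-231 and 20.2 and 21.2 in Hs-578T. SEMA7A, with 38.3 and 40.1 against 10.6 and 9.80 RPKM, and its receptor PLXNC1, with 3.61 and 3.23 against 0.246 and 0.361, were both higher in MDA-MB-231. SEMA5A was 1.02 and 0.793 RPKM in MDA-MB-231 and 37.5 and 71.4 in Hs-578T, the lowest log2 fold change of the members between the parental lines, -5.22 (standard error 0.261). SEMA3F, with 2.08 and 1.98 against 16.6 and 18.2 RPKM, was also lower in MDA-MB-231. With each library of the lower group set to 3 reads, SEMA5B was 13.9-fold and SEMA6D 40.2-fold lower in MDA-MB-231, and SEMA6A 3.42-fold higher. PLXNA2, PLXNB2, SEMA3D and SEMA6B did not pass the test.

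The 4 comparisons with parental controls asked which members followed the label in each line. Changes are given as log2 fold changes on log2(RPKM + 0.5), which understates those of low members, and tested with limma over all 12 libraries. The comparisons of a line share their parental controls. In MDA-MB-231 labelled ERK5-ko, 4 of the 30 tested members were higher and 5 lower, where 6.91% and 10.4% of all tested genes were. Both scalings tried as alternatives gave 7 higher and 5 lower members, and a fit of this line alone gave 8 and 11. Shares of all tested genes were not taken in such alternative fits, so these counts cannot be set against the shares given here. The 4 became 2 with no filter on low values, 2 without replicate 1 of the parental controls, 1 without their replicate 2 and 2 without replicate 1 of the libraries labelled ERK5-ko. In Hs-578T labelled ERK5-ko, 3 members were higher and 8 lower, against a background of 19.7% in each direction. These counts became 7 and 6 without replicate 2 of the parental controls, and 12 lower without their replicate 1. MDA-MB-231 labelled MEK5DD had the most members past the threshold, 8 higher and 13 lower, against 17.5% and 23.8% of all genes, and the 8 became 5 without replicate 2 of the libraries labelled MEK5DD. In Hs-578T labelled MEK5DD, 2 members were higher and 13 lower, against 6.44% and 17%. Quantile normalization gave 3 and 9. The 13 became 7 in a fit of this line alone, 8 without replicate 2 of the parental controls and 8 without replicate 1 of the libraries labelled MEK5DD, and the 2 became 1 without replicate 1 of the former or replicate 2 of the latter. The median log2 fold change of the members was -0.10, -0.13, -0.30 and -0.25 in these 4 comparisons, beside -0.04, 0.01, -0.01 and -0.08 over all tested genes. A fold above 1.5 or below 0.5 was reached as well by 2 higher and 3 lower members in the first, 1 and 5 in the second, 7 and 7 in the third and 2 and 2 in the fourth. In all genes these shares were 2.8% and 1.07%, 9.35% and 3.27%, 7.64% and 6.31%, and 2.9% and 1.49%.

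**Figure D3:**
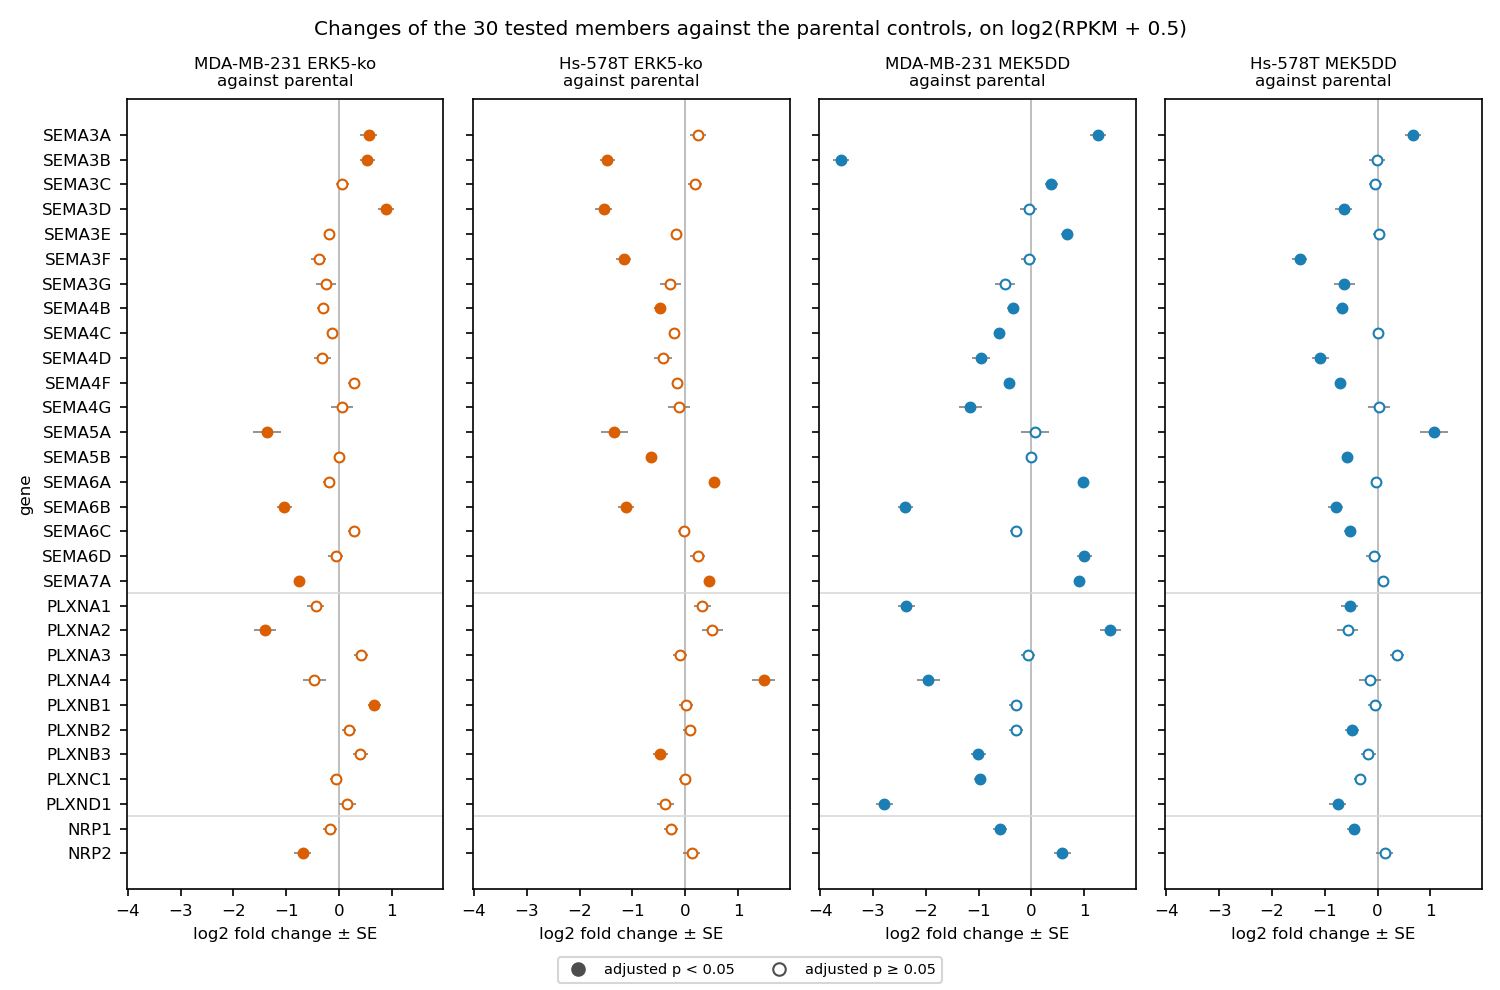
Log2 fold change with its standard error (x axis) of the 30 tested members (y axis) in the 4 comparisons with parental controls, 2 libraries against 2 in each panel. Filled points passed an adjusted p of 0.05 (limma), 9, 11, 21 and 15 members from left to right, and most filled points of both MEK5DD panels lie to the left of 0.

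Among the class 3 ligands, SEMA3B (ENSG00000012171.17, chromosome 3, 50267558 to 50277546) is studied as a candidate tumor suppressor. It was 35.8 and 36.5 RPKM in MDA-MB-231 parental controls, 54.8 and 50.6 with the ERK5-ko label and 2.05 and 3.08 with the MEK5DD label. The last pair lay 14.1-fold below the controls in the mean, a log2 change of -3.60 (standard error 0.148, adjusted p = 9.13e-09), while libraries labelled ERK5-ko were higher by 0.54 (standard error 0.148, adjusted p = 0.0287). In Hs-578T the same ligand was 8.69 and 7.61 RPKM in parental controls, 2.80 and 2.43 with the ERK5-ko label and 7.72 and 8.43 with the MEK5DD label. Here the ERK5-ko libraries fell by 1.47 on the log2 scale (standard error 0.148, adjusted p = 2.17e-05), and the MEK5DD libraries overlapped the controls. The ERK5-ko change therefore had opposite directions in the lines, with a difference of 2.01 (standard error 0.209, adjusted p = 3.30e-05), and the MEK5DD change differed by -3.59 (adjusted p = 3.77e-07).

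SEMA3D also took opposite directions with ERK5-ko. It was 1.56 and 1.55 RPKM in MDA-MB-231 parental controls and 3.88 and 2.80 with the ERK5-ko label, a change of 0.89 (standard error 0.159, adjusted p = 0.00317). In Hs-578T it was 1.52 and 1.51 RPKM in the controls and 0.230 and 0.156 with the ERK5-ko label, 26 reads against 175, a ratio of 7.80 (95% interval of counting error 5.14 to 12.3). The lines differed by 2.43 on the log2 scale (standard error 0.224, adjusted p = 1.53e-05). In Hs-578T labelled MEK5DD it was 0.615 and 0.994 RPKM, a log2 fold change of -0.64 (adjusted p = 0.0136) that no longer passed without replicate 1 of these libraries (-0.43, adjusted p = 0.0862) or in a fit of the Hs-578T libraries alone (adjusted p = 0.0539). MDA-MB-231 labelled MEK5DD, with 1.52 and 1.44, lay just under the controls and did not pass.

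SEMA3A, the founding repellent of the family, which binds NRP1, was higher with MEK5DD in both lines. Its RPKM was 3.90 in both parental controls of MDA-MB-231, 10.1 and 9.96 in libraries labelled MEK5DD and 6.76 and 5.29 in those labelled ERK5-ko. The log2 fold changes were 1.26 (standard error 0.155, adjusted p = 5.77e-05) and 0.56 (adjusted p = 0.0289). The Hs-578T values were 2.004 and 1.85 RPKM in parental controls, 2.94 and 3.82 in libraries labelled MEK5DD and 2.05 and 2.74 in those labelled ERK5-ko. Only the MEK5DD change passed in Hs-578T, at 0.67 (standard error 0.155, adjusted p = 0.0102), and it did not with the replicates numbered 2 of all Hs-578T groups left out (0.46, adjusted p = 0.104). The MEK5DD changes of the lines did not differ past the threshold (0.59, adjusted p = 0.0513), whereas with the replicate number as a block they did (adjusted p = 0.0288).

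SEMA3F, a ligand of NRP2, was lower in Hs-578T under both labels. It was 16.6 and 18.2 RPKM in parental controls, 8.23 and 6.76 with the ERK5-ko label and 6.04 and 5.85 with the MEK5DD label, and no library of either label reached a control. The log2 fold changes were -1.17 (standard error 0.145, adjusted p = 9.87e-05) and -1.47 (standard error 0.145, adjusted p = 5.54e-05). In MDA-MB-231, SEMA3F stayed between 1.19 and 2.11 RPKM in all 6 libraries and passed in neither comparison. Its MEK5DD change differed between lines by 1.42 (adjusted p = 0.000267). That of ERK5-ko differed by 0.78 (adjusted p = 0.0112), which fell short of the threshold without replicate 2 of Hs-578T labelled ERK5-ko (0.65, adjusted p = 0.0562).

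The other class 3 ligands moved less or were low. SEMA3C was the most abundant of them, with 71.0 and 67.1 RPKM in MDA-MB-231 parental controls and 93.9 and 85.5 with the MEK5DD label, a log2 fold change of 0.37 (adjusted p = 0.0338), and it passed in no other comparison with parental controls. SEMA3E, which binds PLXND1 without a neuropilin, had 0.467 and 0.545 RPKM in these controls and 1.16 and 1.03 with MEK5DD, 0.67 on the log2 scale (standard error 0.110, adjusted p = 0.000515). The difference of this change from that in Hs-578T passed (0.65, adjusted p = 0.00688) but not with limma voom on the recovered reads (0.88, adjusted p = 0.350). In Hs-578T SEMA3E had at most 7 reads in a library. With each library labelled ERK5-ko set to 3 reads, it was 1.69-fold lower with this label. The change did not pass (adjusted p = 0.249, and 0.0397 with limma voom). SEMA3G had 26 and 51 reads in Hs-578T parental controls and 15 in each library labelled MEK5DD, a log2 fold change of -0.63 (adjusted p = 0.0374). Without replicate 2 of the controls it was -0.29 (adjusted p = 0.256) and without their replicate 1 -0.97 (adjusted p = 0.00374), and it did not pass in 16 of 23 alternative fits (adjusted p 0.0523 to 0.371), among them those with a pseudocount of 0.1 (0.0770) and with limma voom (0.104). In MDA-MB-231 labelled MEK5DD it had 2 and 7 reads against 18 and 17 and passed only with the replicate block (adjusted p = 0.0487).

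The class 4 semaphorins, membrane-bound ligands of class B plexins for the most part, had 5 tested members. With the MEK5DD label 5 were lower in MDA-MB-231, where 23.8% of all tested genes were, and 3 were lower in Hs-578T, where 17% were, with 0 higher in either line. SEMA4D (also called CD100) was 20.6 and 21.96 RPKM in MDA-MB-231 parental controls and 10.2 and 11.3 in libraries labelled MEK5DD, a log2 change of -0.95 (standard error 0.167, adjusted p = 0.000777). In Hs-578T its RPKM fell from 0.815 and 1.26 to 0.109 and 0.346, that is 101 reads against 21, a ratio of 4.50 (95% interval of counting error 2.79 to 7.58) and a log2 fold change of -1.08 (adjusted p = 0.00105). SEMA4B was 23.2 and 20.5 RPKM in Hs-578T parental controls, 12.4 and 14.4 with the MEK5DD label and 16.7 and 14.5 with the ERK5-ko label, changes of -0.68 (standard error 0.115, adjusted p = 0.00176) and -0.48 (adjusted p = 0.00679). The former did not pass with the replicates numbered 1 of all Hs-578T groups left out (-0.49, adjusted p = 0.0573). In MDA-MB-231 it was 63.5 and 65.5 in the controls and 49.7 and 51.9 with MEK5DD, -0.34 (adjusted p = 0.0330).

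SEMA4F was 32.8 and 29.02 RPKM in Hs-578T parental controls and 17.3 and 20.1 with MEK5DD, a log2 change of -0.71 (standard error 0.102, adjusted p = 0.000702), and in MDA-MB-231 13.1 and 13.8 against 9.85 and 10.03, or -0.42 (adjusted p = 0.00664). SEMA4B, SEMA4D and SEMA4F were thus lower with MEK5DD in both lines, and their changes did not differ between lines past the threshold. SEMA4C, a ligand of PLXNB2, was lower in MDA-MB-231, where its RPKM was 13.1 and 13.2 in the controls and 8.56 and 8.26 with MEK5DD (-0.61, adjusted p = 0.000289). Its Hs-578T values were 10.7 and 11.2 against 10.54 and 11.3, which overlap, and the lines differed by -0.61 (adjusted p = 0.00371). SEMA4G had 1.76 and 1.60 RPKM in MDA-MB-231 controls and 0.416 and 0.541 with MEK5DD, -1.16 (standard error 0.211, adjusted p = 0.00101), and 4.48 and 8.24 against 6.32 and 6.15 in Hs-578T. The lines differed by -1.19 (adjusted p = 0.00859), a value that shrank to -0.78 (adjusted p = 0.0111) without replicate 1 of the Hs-578T controls. SEMA4G shares 1441 exon bases with genes on the opposite strand, among them MRPL43, and whether counting used the strand is not given in the sources used here. NRP1 (561 bases), PLXNC1 (399), SEMA6A (326), NRP2 (147), SEMA3F (110) and PLXNA3 (11) share exon bases with such genes too. Of the class 4 members, 0 passed in MDA-MB-231 labelled ERK5-ko, and in Hs-578T with this label SEMA4D, at 0.642 and 0.640 RPKM, passed only with the replicate block (-0.42, adjusted p = 0.0695, and 0.0218 with the block).

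SEMA5A (ENSG00000112902.11, chromosome 5, 9035026 to 9546075), a ligand with thrombospondin repeats for which PLXNB3 is a receptor, was lower with the ERK5-ko label in both lines. In MDA-MB-231 it had 87 and 76 reads in parental controls and 4 and 3 with the ERK5-ko label, RPKM values of 1.02 and 0.793 against 0.0514 and 0.0348. The ratio was 21.1 (95% interval of counting error 10.002 to 53.3), and the log2 fold change -1.37 (standard error 0.261, adjusted p = 0.00452). With a pseudocount of 1 this change was -0.87 (adjusted p = 0.0369), and with limma voom -4.22 (adjusted p = 0.0135). Libraries labelled MEK5DD, with 0.988 and 0.951 RPKM, lay within the range of the controls. Hs-578T had far more, with 37.5 and 71.4 RPKM in the controls, 22.3 and 18.2 with the ERK5-ko label and 87.9 and 134 with the MEK5DD label. The ERK5-ko libraries lay below and the MEK5DD libraries above both controls, which stood well apart from each other. The log2 fold changes were -1.34 (standard error 0.261, adjusted p = 0.00198), which was -0.88 (adjusted p = 0.00989) without replicate 2 of the controls, and 1.06 (adjusted p = 0.0136). The latter did not pass without replicate 1 of the controls (0.60, adjusted p = 0.0796) or replicate 2 of the libraries labelled MEK5DD (0.76, adjusted p = 0.0677). The gene shares 436 exon bases with an antisense gene. SEMA5B was seen only in Hs-578T, with 33 and 36 reads in the controls, 13 and 12 with ERK5-ko and 13 and 11 with MEK5DD, changes of -0.65 (adjusted p = 0.000260) and -0.58 (adjusted p = 0.00127).

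SEMA6B, a transmembrane ligand of class A plexins, was lower in all 4 comparisons. In MDA-MB-231 it was 46.3 and 42.5 RPKM in parental controls, 20.4 and 22.2 with the ERK5-ko label and 8.12 and 7.998 with the MEK5DD label. The Hs-578T values were 33.6 and 43.6, 19.9 and 15.1, and 21.0 and 22.9 in the same order. Every library of either label lay below both controls of its line. The log2 fold changes were -1.04 and -2.39 in MDA-MB-231 and -1.12 and -0.79 in Hs-578T (standard error 0.144 for each, adjusted p = 0.000633, 1.81e-07, 0.000121 and 0.00268). With the replicates numbered 2 of all Hs-578T groups left out, the ERK5-ko change in Hs-578T shrank from -1.12 to -0.74. The MEK5DD change was larger in MDA-MB-231, by -1.60 (standard error 0.203, adjusted p = 0.000109), while that of ERK5-ko did not differ between the lines past the threshold.

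SEMA6A and SEMA6D were low members that were higher in MDA-MB-231 labelled MEK5DD. SEMA6D, which can signal through PLXNA1, had 1 and 3 reads in the parental controls and 0 in both libraries labelled ERK5-ko. With the MEK5DD label it had 36 and 54 (adjusted p = 0.000149), a ratio to the controls of 22.8 (95% interval of counting error 8.61 to 85.5). SEMA6A, a ligand of PLXNA2 and PLXNA4, had 10 and 15 reads in these controls and 45 and 48 with MEK5DD, a ratio of 3.77 (95% interval of counting error 2.40 to 6.12). In Hs-578T, SEMA6A had 0 and 1 reads in parental controls, 11 and 12 with the ERK5-ko label and 0 in both libraries labelled MEK5DD. With each control set to 3 reads, the libraries labelled ERK5-ko were 3.31-fold higher. SEMA6C was higher than 1.5 RPKM in all 12 libraries and passed only in Hs-578T labelled MEK5DD, with 1.61 and 1.89 against 2.57 and 2.90 (-0.52, adjusted p = 0.00772).

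SEMA7A (ENSG00000138623.9, chromosome 15, 74409289 to 74434467), which binds PLXNC1 and β1 integrins, had closely matching replicates in MDA-MB-231. It was 38.3 and 40.1 RPKM in parental controls, 23.1 and 22.8 with the ERK5-ko label and 73.3 and 73.8 with the MEK5DD label. The log2 fold changes were -0.76 (standard error 0.0976, adjusted p = 0.000402) and 0.90 (standard error 0.0976, adjusted p = 2.09e-05). In Hs-578T it was 10.6 and 9.80 RPKM in the controls, 14.6 and 13.7 with ERK5-ko and 10.1 and 11.96 with MEK5DD, and the ERK5-ko libraries were higher by 0.45 (standard error 0.0976, adjusted p = 0.00368). The ERK5-ko changes of the lines thus had opposite directions and differed by -1.21 (standard error 0.138, adjusted p = 6.09e-05), and the MEK5DD changes differed by 0.80 (adjusted p = 0.000909).

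**Figure D4:**
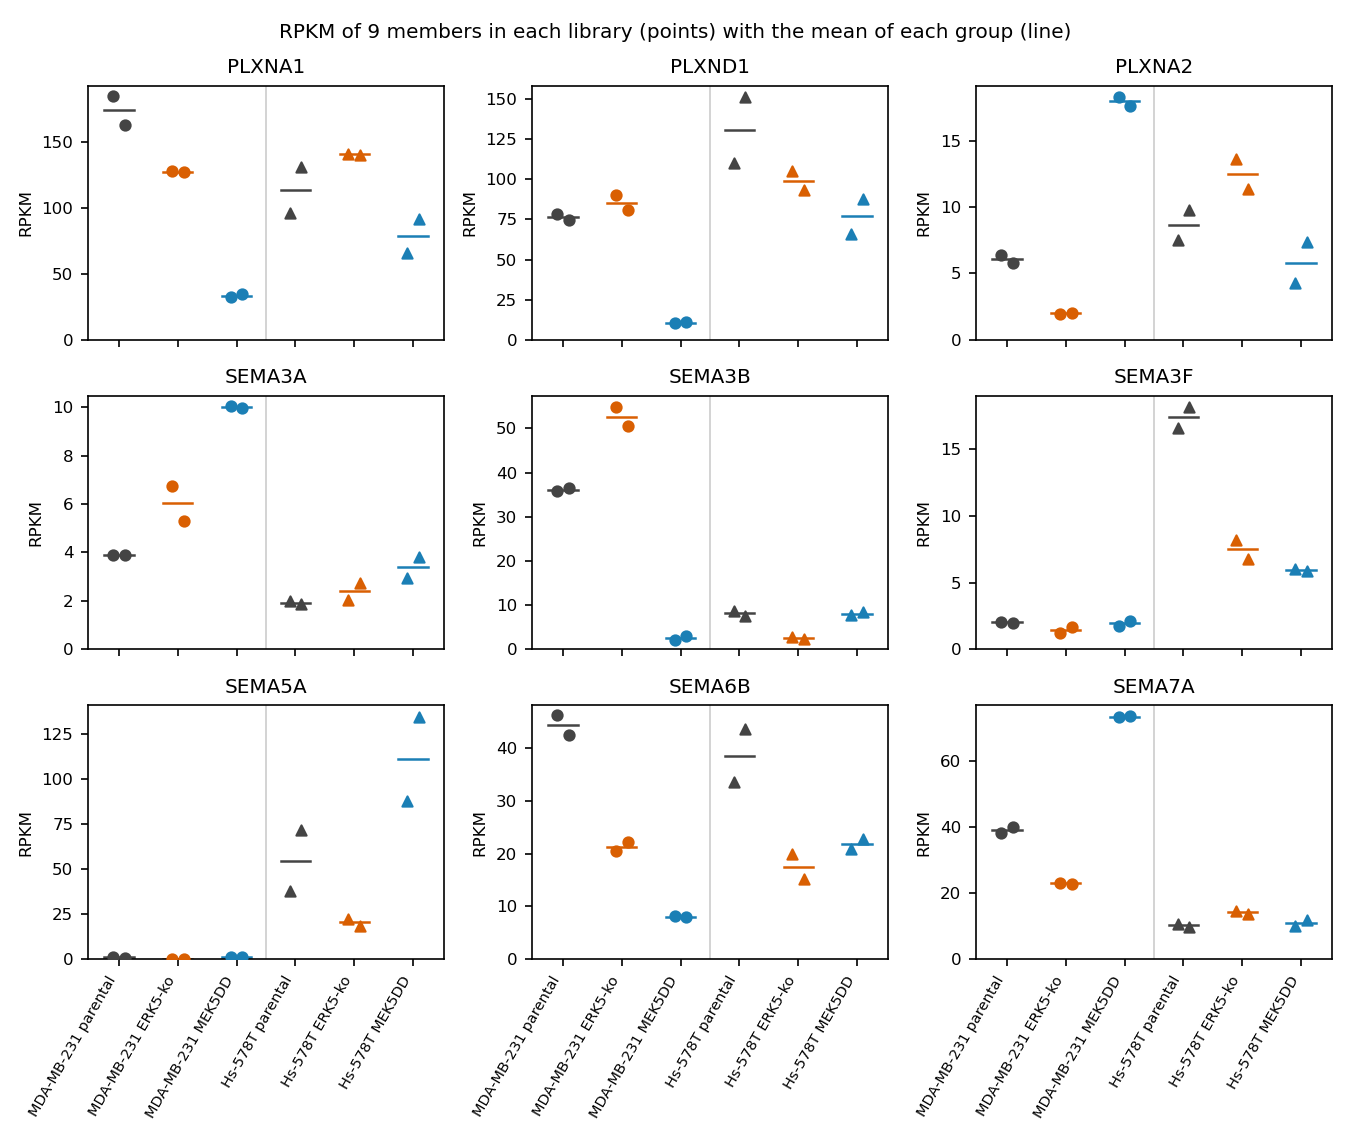
RPKM (y axis, from 0) of 9 members in every library, with MDA-MB-231 as circles and Hs-578T as triangles, parental controls in grey, ERK5-ko in orange and MEK5DD in blue, and the group mean as a line (n = 2). PLXNA1 and PLXND1 drop in MDA-MB-231 labelled MEK5DD, PLXNA2, SEMA3A and SEMA7A are highest there, and SEMA6B is highest in the controls of each line.

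The plexins were the family with the lowest median log2 fold change in MDA-MB-231 labelled MEK5DD, -0.97 over 9 genes, of which 5 were lower and 1 higher. Among all tested genes 23.8% were lower and 17.5% higher, with a median of -0.01. PLXND1 (ENSG00000004399.12, chromosome 3, 129555175 to 129606818), the receptor of SEMA3E, fell from 78.3 and 74.7 RPKM to 10.3 and 11.1, 7.15-fold in the mean and by 2.78 on the log2 scale (standard error 0.158, adjusted p = 1.11e-07). Libraries labelled ERK5-ko, with 90.2 and 80.7, did not pass. In Hs-578T PLXND1 was 110 and 151 RPKM in the controls, 66.0 and 87.8 with MEK5DD (-0.76, standard error 0.158, adjusted p = 0.00587) and 105 and 93.4 with ERK5-ko, which passed only with the replicate block (-0.38, adjusted p = 0.0779, and 0.0402 with the block). PLXNA1 (ENSG00000114554.11, chromosome 3, 126988594 to 127037392), a partner of neuropilins for class 3 ligands, had 185 and 163 RPKM in MDA-MB-231 controls and 32.1 and 34.6 with MEK5DD, 5.22-fold less, with a log2 change of -2.37 (standard error 0.161, adjusted p = 4.65e-07). With ERK5-ko it had 128 and 127, both below the controls, which passed with the block alone (-0.45, adjusted p = 0.0810, and 0.0201 with the block). In Hs-578T PLXNA1 was 95.9 and 131 in the controls, 66.0 and 91.3 with MEK5DD (-0.53, adjusted p = 0.0342) and 141 and 140 with ERK5-ko (0.33, adjusted p = 0.130, and 0.0414 with the block). The MEK5DD changes of both plexins were larger in MDA-MB-231, by -2.02 for PLXND1 (adjusted p = 3.89e-05) and -1.84 for PLXNA1 (adjusted p = 8.90e-05).

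PLXNA2 (ENSG00000076356.6, chromosome 1, 208022242 to 208244320), a receptor of class 3 and class 6 ligands, was the 1 plexin that was higher in MDA-MB-231 labelled MEK5DD. It was 6.41 and 5.77 RPKM in parental controls, 18.3 and 17.7 with the MEK5DD label and 1.96 and 2.02 with the ERK5-ko label. The log2 fold changes were 1.49 (standard error 0.201, adjusted p = 0.000116) and -1.40 (standard error 0.201, adjusted p = 0.000803). Hs-578T had 7.48 and 9.78 RPKM in the controls, 13.6 and 11.4 with ERK5-ko and 4.28 and 7.34 with MEK5DD. Neither change passed on log2(RPKM + 0.5) without the replicate block (0.51, adjusted p = 0.0620, or 0.0404 with limma voom, and -0.56, adjusted p = 0.0644, or 0.0376 and 0.0374 with the block). The difference between lines passed for both labels, -1.92 for ERK5-ko (adjusted p = 0.000353) and 2.05 for MEK5DD (adjusted p = 0.000193).

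PLXNA4 was 4.44 and 4.55 RPKM in MDA-MB-231 controls and 0.840 and 0.739 with MEK5DD, a log2 change of -1.95 (standard error 0.215, adjusted p = 2.40e-05). Hs-578T had 0.623 and 1.35 in the controls and 3.80 and 3.303 with the ERK5-ko label, 3.60-fold higher and 1.49 on the log2 scale (standard error 0.215, adjusted p = 0.000291). In the fit without the replicate block, PLXNA4 was the 1 plexin to pass upward in Hs-578T. PLXNA3 passed in 0 of these comparisons in the fit without the block, and with it in MDA-MB-231 labelled ERK5-ko, at 65.2 and 60.4 against 46.1 and 48.2 RPKM (0.41, adjusted p = 0.0549, 0.0278 with the block and 0.0409 with limma voom), and in Hs-578T labelled MEK5DD, at 20.9 and 22.6 against 14.3 and 19.8 (0.36, adjusted p = 0.0731, and 0.0395 with the block).

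Of the class B plexins, PLXNB1, the receptor of SEMA4D, was higher in MDA-MB-231 labelled ERK5-ko, with 7.18 and 6.09 RPKM against 4.15 and 3.82 (0.67, standard error 0.126, adjusted p = 0.00434, and 0.0503 without replicate 2 of the controls). PLXNB3 was 20.1 and 22.3 RPKM in MDA-MB-231 controls and 9.32 and 11.4 with MEK5DD (-1.01, standard error 0.140, adjusted p = 0.000146). In Hs-578T it was 8.93 and 11.4 in the controls and 7.67 and 6.61 with ERK5-ko (-0.47, adjusted p = 0.01998). PLXNB3 shares 1432 exon bases with SRPK3 on the same strand, so part of its reads could be assigned to either gene. PLXNB2 was 114 and 140 RPKM in Hs-578T controls and 78.2 and 103 with MEK5DD (-0.49, adjusted p = 0.0189). In MDA-MB-231 it was 107 and 105 against 83.6 and 89.3 (-0.29, adjusted p = 0.0931, and 0.0415 with the block). PLXNC1, the receptor of SEMA7A, was 3.61 and 3.23 RPKM in MDA-MB-231 controls, 3.37 and 3.20 with ERK5-ko and 1.37 and 1.62 with MEK5DD (-0.97, standard error 0.114, adjusted p = 3.97e-05). In Hs-578T it was at most 0.361 RPKM in any library. The difference of its MEK5DD change between lines passed (-0.64, adjusted p = 0.00852), but not with a pseudocount of 0.1 (-0.39, adjusted p = 0.256) or with limma voom (-0.15, adjusted p = 0.816).

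The neuropilins moved apart in MDA-MB-231 labelled MEK5DD. NRP1 (ENSG00000099250.17, chromosome 10, 33177492 to 33336262) was 162 and 163 RPKM in the controls and 107 and 108 with MEK5DD (-0.59, standard error 0.129, adjusted p = 0.00314), and in Hs-578T 110 and 138 against 80.1 and 101 (-0.45, adjusted p = 0.0259). It passed in neither line with ERK5-ko, where it was 152 and 137 in MDA-MB-231 and 107 and 97.4 in Hs-578T. NRP2 was 27.8 and 26.8 RPKM in MDA-MB-231 controls, 39.1 and 43.5 with MEK5DD (0.59, standard error 0.160, adjusted p = 0.0120) and 16.4 and 17.1 with ERK5-ko (-0.69, standard error 0.160, adjusted p = 0.0130). The MEK5DD change did not pass without replicate 2 of the controls (0.56, adjusted p = 0.0695) or of the libraries labelled MEK5DD (0.51, adjusted p = 0.0903). That of ERK5-ko did not pass when any of its 4 libraries was left out, with adjusted p values of 0.0919 and 0.0682 without replicates 1 and 2 of the controls and 0.0820 and 0.0636 without those labelled ERK5-ko. In Hs-578T, NRP2 lay between 16.7 and 25.2 RPKM in all 6 libraries with overlapping groups and passed in neither comparison.

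Across the lines, the same label gave 2 members that were lower in both with ERK5-ko, SEMA5A and SEMA6B, 0 that were higher in both, and 3 with opposite directions, SEMA3B, SEMA3D and SEMA7A. Among all tested genes 1.25% were lower in both, 0.874% higher in both and 7.42% opposite. With MEK5DD, 7 members were lower in both lines, NRP1, PLXNA1, PLXND1, SEMA4B, SEMA4D, SEMA4F and SEMA6B, SEMA3A was higher in both, and 0 had opposite directions, where 3.67%, 1.3% and 5.95% of all tested genes were lower, higher and opposite. The difference between lines itself passed for 14 of 30 members with ERK5-ko and 16 with MEK5DD, where 39.8% and 39.6% of all tested genes passed. The 14 became 8 without replicate 2 of Hs-578T labelled ERK5-ko. With the replicate block, PLXND1 also differed with ERK5-ko (adjusted p = 0.0399), and NRP2 (0.0311), SEMA3A (0.0288), SEMA3C (0.0277), SEMA3D (0.0468) and SEMA5A (0.0242) with MEK5DD.

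Of 63 partner genes listed for the pathway, co-receptors, other ligands of neuropilins, proteases that process semaphorins and cytoplasmic effectors, 62 had values and 54 were tested. In MDA-MB-231 labelled ERK5-ko, 7 were higher and 6 lower, in Hs-578T 13 and 12, in MDA-MB-231 labelled MEK5DD 7 and 19 and in Hs-578T 2 and 7. Among all tested genes 6.91% were higher and 10.4% lower, 19.7% and 19.7%, 17.5% and 23.8%, and 6.44% and 17% in the same order. The co-receptor PTK7 was the lowest in the first comparison, with 10.6 and 10.1 RPKM in the controls and 2.42 and 1.97 with ERK5-ko, a log2 change of -2.01 (standard error 0.104, adjusted p = 7.63e-07). It was followed there by PGF (-0.91), a growth factor that binds neuropilins, and TIAM1 (-0.89), an exchange factor for Rac, while RHOD (0.86), DPYSL2 (0.49) and RND3 (0.47) rose most.

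L1CAM, an adhesion molecule that joins NRP1 in receptors for SEMA3A, fell most among the partners in Hs-578T. It was 77.1 and 97.5 RPKM in parental controls, 12.5 and 11.3 with ERK5-ko and 33.9 and 45.3 with MEK5DD, log2 fold changes of -2.82 (standard error 0.145, adjusted p = 1.40e-07) and -1.14 (standard error 0.145, adjusted p = 0.000310). Its relative NRCAM fell in both comparisons as well (-2.27 and -0.90). In MDA-MB-231 L1CAM was 233 and 231 RPKM in the controls and 128 and 134 with MEK5DD (-0.82, adjusted p = 0.000792). MMP14, a membrane protease, was the third to fall with ERK5-ko in Hs-578T (-1.14), where the oxidoreductase MICAL2 (1.05), MICALL1 (0.94) and MICAL3 (0.93) rose most. In Hs-578T labelled MEK5DD, TIAM1 fell (-0.82), while RND3 (0.83), a GTPase that binds plexins, and LIMK1 (0.35), a kinase of cofilin, were the 2 to rise, and ERBB2 (-0.40, adjusted p = 0.0284) had the third value from the top among those that passed.

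RHOD, a GTPase that binds plexins, fell most in MDA-MB-231 labelled MEK5DD. It was 40.6 and 38.4 RPKM in parental controls and 1.71 and 2.78 with the MEK5DD label, a log2 change of -3.89 (standard error 0.162, adjusted p = 9.90e-09), and had 0 reads in every Hs-578T library. VEGFA, the growth factor that shares NRP1 with SEMA3A, was 124 and 126 RPKM in these controls and 40.8 and 50.5 with MEK5DD (-1.45, standard error 0.0991, adjusted p = 4.94e-07). CSPG4 (-1.39) also fell, and DPYSL3 (2.02), FARP1 (0.81) and MMP14 (0.56) rose most. DPYSL3, a collapsin response mediator of SEMA3A signaling, was 2.07 and 1.78 RPKM in these controls and 9.52 and 9.19 with MEK5DD, far below the 513 and 544 of Hs-578T parental controls.

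**Figure D5:**
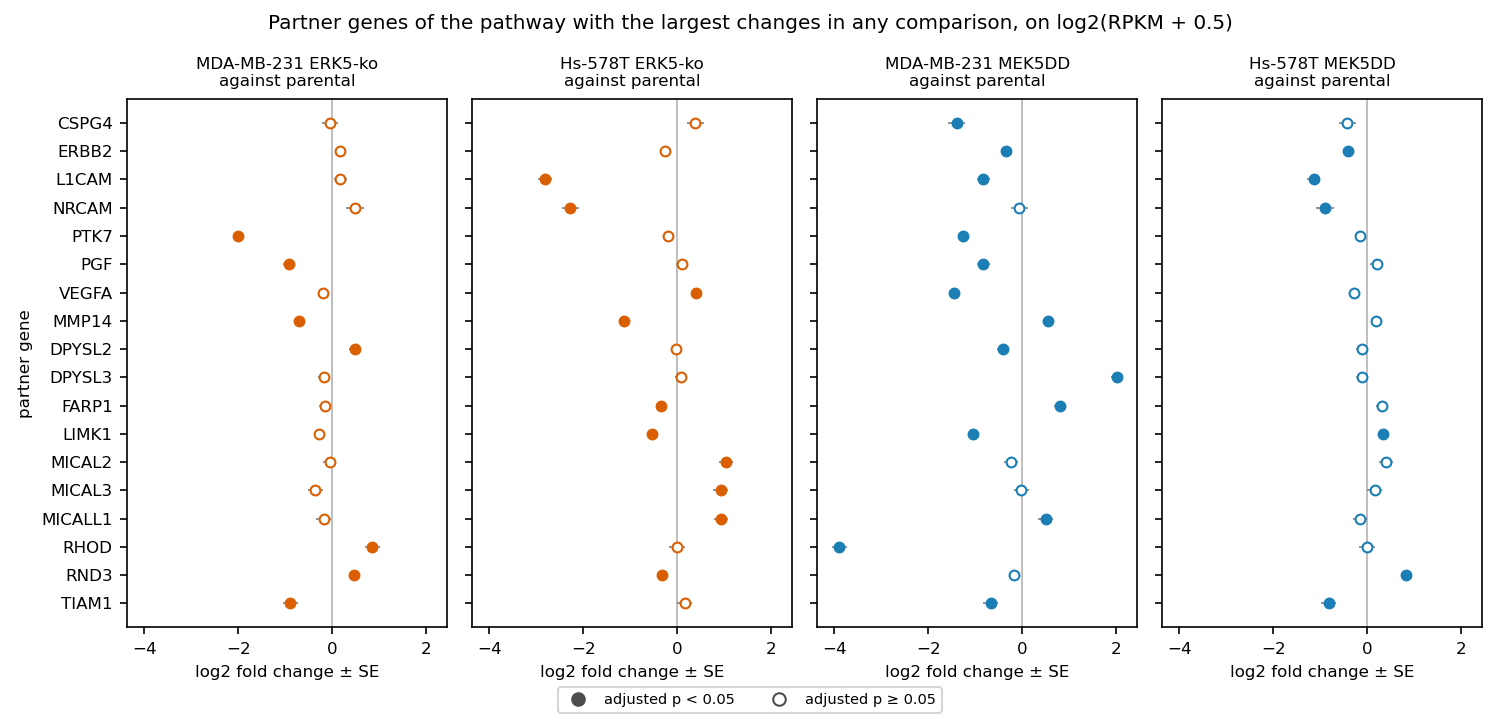
Log2 fold change with its standard error (x axis) of the 18 partner genes (y axis) that were among the 3 highest or the 3 lowest in any of the 4 comparisons with parental controls, 2 libraries against 2, with filled points at an adjusted p under 0.05 (limma). L1CAM and NRCAM lie far to the left in Hs-578T labelled ERK5-ko and RHOD in MDA-MB-231 labelled MEK5DD.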

How the data were processed

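RNA of 12 libraries (6 groups of 2) was sequenced from TruSeq Stranded mRNA libraries. The authors deposited RPKM per gene, and the submitters' processing notes name bcl2fastq, Trimmomatic 0.32, TopHat2 2.1.1, R 3.3.1, DESeq2 1.12.4 and GRCh38. The counting tool, its annotation and its strand setting are not given in the sources used here. The values of all 32152 genes were whole multiples of 1 read (tolerance 0.0001 reads), which gave each library's total, 20248162 to 27791195 reads, and a gene length near the mean of its GENCODE 29 transcripts (within 2% for 86.7% of 11702 genes). With totals set off by 1%, 0 of 500 genes came out whole.

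Members and partner lists were chosen with earlier results of these data known. Groups came from the labels. The 13737 protein-coding genes that reached 0.5 RPKM in 2 or more libraries were tested on log2(RPKM + 0.5) with limma 3.58.1 (moderated with a trend, 6 group means, 6 residual degrees of freedom) in R 4.3.3, with Benjamini-Hochberg adjustment within each comparison over all tested genes, a threshold of 0.05, and two-sided p-values. The step was tested on simulated data. An exact permutation test of 2 against 2 libraries cannot go below 0.333, so none was used. The labels give the libraries of a group as consecutive passages and name no clone. The p-values are thus taken to measure the spread between passages and not between separately made lines. The 2 libraries of a group differed by unequal amounts. Chi-square divided by its degrees of freedom was 30.68 in Hs-578T parental controls and 41.93 in Hs-578T labelled MEK5DD. In the remaining groups it lay between 2.815 and 8.784. The fit takes 1 residual variance per gene over all 12 libraries, so its standard errors do not follow this difference. Its p-values can thus be too small where those Hs-578T groups enter, and too large within MDA-MB-231. Same-numbered libraries deviated together mainly in Hs-578T parental controls and Hs-578T labelled MEK5DD (correlation of deviations 0.541). The other pairs of groups within a line had 0.107 to 0.187. A fit with the replicate number as a block within each line is given where it changes a call. Members past the threshold with a fold over 1.5 in either direction are given in every library, and of the partners the 3 highest and 3 lowest that passed per comparison. Intervals of read ratios are exact, at 95%, and cover counting error only. Where every library of a group had 3 reads or fewer, folds were taken with each of them set to 3 reads. Such folds take the reads of the other group as exact and are not 95% bounds. Alternatives were pseudocounts of 0.1 and 1, no filter, other scalings, each line alone, genes of all types, limma voom on the recovered reads, the block, the study's fold thresholds and leaving out each library. A scale per longest transcript and leaving out same-numbered Hs-578T libraries together were added after the data were seen. Python 3.11.15 was used otherwise.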

Additional observations from a re-analysis of the deposited data

Results flagged for a closer look

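The results below were singled out because the same label gave a log2 fold change that differed between the lines, by limma's test of the difference itself, MDA-MB-231 minus Hs-578T. Among all tested genes 39.8% and 39.6% passed this test. Fits that left out libraries were followed by member only for differences with a fold over 1.5. PLXNA3 and SEMA4F with ERK5-ko and SEMA5B with MEK5DD lay under this fold. Whether their calls held in such fits was thus not followed, and they cannot be taken as stable. With the Hs-578T replicates numbered 2 left out, the ERK5-ko difference of PLXNB3 shrank from 0.87 to 0.61. For ERK5-ko, the difference passed for 14 members. The change was lower in MDA-MB-231 than in Hs-578T for PLXNA4 -1.96 (adjusted p = 0.000488), PLXNA2 -1.92 (adjusted p = 0.000353), SEMA7A -1.21 (adjusted p = 6.09e-05), NRP2 -0.81 (adjusted p = 0.0153), PLXNA1 -0.77 (adjusted p = 0.0194), SEMA6A -0.75 (adjusted p = 0.00148). It was higher for SEMA3D 2.43 (adjusted p = 1.53e-05), SEMA3B 2.01 (adjusted p = 3.30e-05), PLXNB3 0.87 (adjusted p = 0.00507), SEMA3F 0.78 (adjusted p = 0.0112), PLXNB1 0.65 (adjusted p = 0.0137), SEMA5B 0.65 (adjusted p = 0.00254), PLXNA3 0.52 (adjusted p = 0.0478), SEMA4F 0.43 (adjusted p = 0.0352). Of these, NRP2 did not pass without replicate 1 of MDA-MB-231 parental controls (adjusted p = 0.0532) or replicate 2 of Hs-578T labelled ERK5-ko (0.0601), and PLXNA1 did not in 6 of the fits without 1 library (0.0505 to 0.0770). PLXNB1 did not without replicate 2 of MDA-MB-231 parental controls (0.0553), replicate 1 of MDA-MB-231 labelled ERK5-ko (0.0557) or replicate 2 of Hs-578T labelled ERK5-ko (0.0665), and SEMA3F did not without the last of these (0.0562).

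For MEK5DD it passed for 16 members. The change was lower in MDA-MB-231 than in Hs-578T for SEMA3B -3.59 (adjusted p = 3.77e-07), PLXND1 -2.02 (adjusted p = 3.89e-05), PLXNA1 -1.84 (adjusted p = 8.90e-05), PLXNA4 -1.81 (adjusted p = 0.000769), SEMA6B -1.60 (adjusted p = 0.000109), SEMA4G -1.19 (adjusted p = 0.00859), PLXNB3 -0.83 (adjusted p = 0.00625), PLXNC1 -0.64 (adjusted p = 0.00852), SEMA4C -0.61 (adjusted p = 0.00371). It was higher for PLXNA2 2.05 (adjusted p = 0.000193), SEMA3F 1.42 (adjusted p = 0.000267), SEMA6D 1.08 (adjusted p = 0.00131), SEMA6A 1.0092 (adjusted p = 0.000178), SEMA7A 0.80 (adjusted p = 0.000909), SEMA3E 0.65 (adjusted p = 0.00688), SEMA5B 0.58 (adjusted p = 0.00465). PLXNC1 and SEMA3E no longer passed with a pseudocount of 0.1 (adjusted p = 0.256 and 0.0759) or with limma voom (0.816 and 0.350), and SEMA5B, at 0 reads in every MDA-MB-231 library, did not with limma voom (0.111). Without replicate 1 of Hs-578T parental controls, the difference of SEMA4G was -0.78.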

How the results depend on the processing

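Over 24 alternative settings, 69 named values gave 1608 results, of which 1559 kept their direction and their side of the threshold, 49 kept their direction but no longer passed and 0 reversed. For a comparison within a line, most fits without 1 library leave out a library that the comparison does not use. Its log2 fold change could not move in those fits, only its adjusted p, so the tally is no measure of robustness by itself. The cause of the changes in counts below was not tested, except that fewer libraries or a stricter fold were used where so named. Other than for the study's fold thresholds, no share of all tested genes was taken beside these counts. In MDA-MB-231 labelled ERK5-ko, the 4 higher members became 2 with no filter on low values, 7 with median-ratio scaling, 7 with quantile normalization, 8 in a fit of this line alone and 2 with the study's fold thresholds, and 1 to 6 when each library was left out. The 5 lower members became 11 in a fit of this line alone, 8 without the Hs-578T replicates numbered 1, 8 without those numbered 2 and 3 with the study's thresholds. Leaving out each library gave 4 to 6. In Hs-578T labelled ERK5-ko, the 3 higher members became 5 with the replicate block, 9 without the Hs-578T replicates numbered 2 and 1 with the study's thresholds, with 2 to 7 when each library was left out, and the 8 lower members became 5 with the study's thresholds (6 to 12). In MDA-MB-231 labelled MEK5DD, leaving out each library gave 5 to 8 higher and 11 to 15 lower members, and the study's thresholds gave 7 lower. In Hs-578T labelled MEK5DD, it gave 1 to 3 higher and 8 to 14 lower, and the 13 lower became 7 in a fit of this line alone and 2 with the study's thresholds. The differences between lines were 8 to 15 for ERK5-ko and 15 to 22 for MEK5DD when each library was left out. The replicate block gave 5 higher and 6 lower, 5 and 10, 8 and 15, and 3 and 14 members in the 4 comparisons, and 15 and 21 line differences, and changed no other call than those named with it. Members with few reads are limited by depth, and their log2 fold changes were larger with limma voom, namely -4.22 for SEMA5A in MDA-MB-231 labelled ERK5-ko, 4.30 for SEMA6D and 1.89 for SEMA6A in MDA-MB-231 labelled MEK5DD, -2.95 for SEMA3D in Hs-578T labelled ERK5-ko and -2.29 for SEMA4D in Hs-578T labelled MEK5DD.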
